A study of Homo sapiens with 6 samples.

Results

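The KRAB zinc finger clusters of chromosome 19 were taken as 4 intervals of hg19, and every deposited peak whose midpoint lay in one of them was a member. Interval 1 is chr19:19800000-24400000, interval 2 is chr19:36600000-38400000, interval 3 is chr19:44200000-45000000 and interval 4 is chr19:52200000-59118000, with lengths of 4.6, 1.8, 0.8 and 6.918 Mb. They held 768 of the 181131 deposited peaks, and the rest of chromosome 19, which served for comparison, held 2753. The intervals cover 14.118 Mb, or 23.9% of the chromosome.

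The peaks come from RNA immunoprecipitation and sequencing (RIP-seq), in which a protein is recovered with an antibody and the RNA held by it is sequenced. Wild-type HEK293T cells, a human embryonic kidney line that carries the SV40 large T antigen, gave 6 libraries in 2 experiments called RIP-1 and RIP-2, each with an anti-SF3B4, an IgG and an input library. No genotype or treatment differs between the libraries. For each experiment the authors deposited 1 list named mRNA and 1 named NotExon, here called the non-exon list. What the authors meant by these names is not given in the sources.

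KRAB zinc finger proteins form the largest family of human transcription factors and are known for silencing transposable elements through the co-repressor TRIM28. Their genes arose by tandem duplication and stand in rows, many of them on chromosome 19, so neighbouring members resemble each other in sequence. A typical gene has short exons for the KRAB domain and a single long last exon that encodes the whole array of zinc fingers. In the RefSeq table at hand, 255 of the 538 protein-coding genes with a ZNF or ZFP number as symbol were on chromosome 19. SF3B4 belongs to the SF3b complex of the U2 snRNP, which recognises the intron branch site during splicing. The gene table is of another build than hg19. Members were therefore given by position, the label of the intervals could not be checked against gene names, and no sequence was read. The long arm end also holds families other than zinc fingers, such as the leukocyte receptors, and further zinc finger genes lie in the rest of the chromosome.

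Each list belongs to 1 experiment, and the control library of its peak calling is not named in the sources used here. No value of a list has replicate error, and no test across replicates was possible. Intervals given with values are 95% intervals for counting error only: exact Poisson for counts per Mb, exact conditional binomial for ratios of densities, Wilson for shares of peaks, and order statistics for medians. They treat peaks as independent, while segments of 1 transcript or duplicated genes are not. Library depth is unknown, so a count or score of RIP-1 is not tested against its RIP-2 counterpart.

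In the mRNA lists the density over all 4 zinc finger intervals was below that of the rest in RIP-1 and above it in RIP-2, though not in each interval. RIP-1 had 83 mRNA-list members, or 5.88 per Mb (4.68 to 7.29), against 582 peaks and 12.9 per Mb (11.9 to 14.02) in the rest of chromosome 19. RIP-2 had 99 members, or 7.01 per Mb (5.70 to 8.54), against 199 peaks and 4.42 per Mb (3.83 to 5.08) in the rest. The density in the intervals was thus 0.455 times that of the rest in RIP-1 (0.357 to 0.573) and 1.59 times in RIP-2 (1.23 to 2.03). The intervals held 12.5% of the chromosome 19 peaks of the RIP-1 mRNA list (10.2 to 15.2) and 33.2% of those of RIP-2 (28.1 to 38.8). Side by side and with depth unknown, RIP-2 had 1.19 times as many mRNA-list peaks as RIP-1 in the intervals, 0.342 times in the rest and 0.938 times over the whole lists.

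Both directions were the same against a smaller part of the chromosome. When only the part of the chromosome beyond interval 1 was taken as the rest, the ratio was 0.586 in RIP-1 (0.452 to 0.753) and 1.84 in RIP-2 (1.38 to 2.46). Runs of neighbouring segments on 1 strand, counted once where gaps were 10 kb or less, gave 0.518 (0.390 to 0.677) and 1.55 (1.18 to 2.02).

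The non-exon lists showed the same lower density in RIP-1 but a level density in RIP-2. RIP-1 had 112 non-exon members, or 7.93 per Mb (6.53 to 9.55), against 13.1 per Mb in the rest (12.1 to 14.2), a ratio of 0.604 (0.489 to 0.741). RIP-2 had 474 members, or 33.6 per Mb (30.6 to 36.7), against 30.7 per Mb in the rest (29.1 to 32.3). Its ratio of 1.09 (0.984 to 1.22) did not differ from 1 beyond counting error. Without interval 1 it was 1.18 (1.04 to 1.33).

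**Figure D1:**
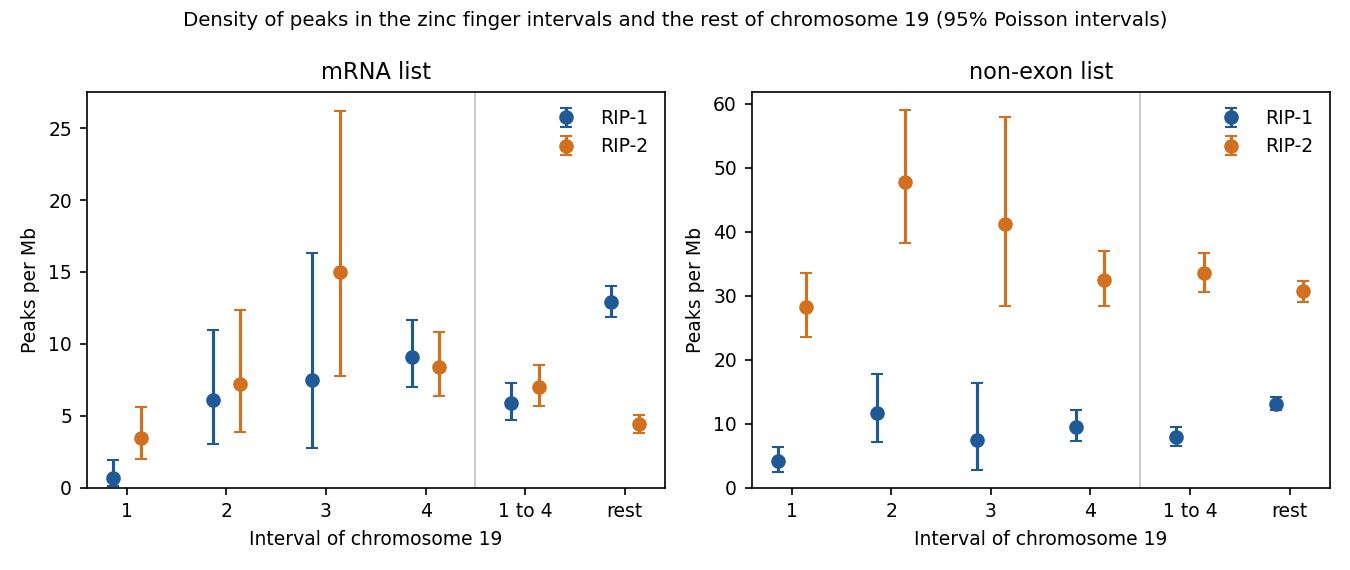
Peaks per Mb (y axis) in each interval, in all 4 together and in the rest of chromosome 19 (x axis), for the mRNA and non-exon lists of RIP-1 (blue) and RIP-2 (orange); bars are 95% Poisson intervals. In the mRNA lists RIP-1 lies at 12.9 per Mb in the rest and 5.88 in the intervals, while RIP-2 lies at 4.42 and 7.01.

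The mRNA lists' part of all listed entries is given as a description, since how entries of both kinds of list relate is not stated. In RIP-1, 83 of the 195 entries in the intervals were in the mRNA list (42.6%, 35.8 to 49.6), against 49.6% in the rest (46.8 to 52.5) and 29.8% over both whole lists. In RIP-2 the values were 99 of 573 (17.3%, 14.4 to 20.6), 12.6% (11.05 to 14.3) and 7.12%. The counting intervals of the zinc finger intervals and the rest overlapped in RIP-1 and did not in RIP-2.

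The 4 intervals differed among themselves, with interval 1 the sparsest in both mRNA lists. Interval 1, in the band next to the centromere, held 3 RIP-1 mRNA-list peaks, or 0.652 per Mb (0.134 to 1.91), and 16 of RIP-2, or 3.48 per Mb (1.99 to 5.65). Interval 2 held 11 and 13 peaks, or 6.11 and 7.22 per Mb. Interval 3, the shortest, held 6 and 12, or 7.5 and 15.0 per Mb, the highest RIP-2 density of the 4. Interval 4 held 63 and 58, or 9.11 (6.998 to 11.7) and 8.38 (6.37 to 10.8) per Mb. It alone thus carried 63 of the 83 RIP-1 members, and without it the RIP-1 ratio to the rest was 0.215 (0.130 to 0.335). The RIP-2 ratio without it was 1.29 (0.897 to 1.81), no longer above 1 beyond counting error. The RIP-2 count was 5.33 times the RIP-1 count in interval 1 and 0.921 times in interval 4, the latter near the 0.938 of the whole lists.

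Non-exon members were spread more evenly among the 4 intervals. Interval 1 held 19 in RIP-1 and 130 in RIP-2, or 4.13 and 28.3 per Mb. Interval 2 had the highest density in both experiments, with 21 and 86 peaks, or 11.7 and 47.8 per Mb. Interval 3 held 6 and 33, and interval 4 held 66 and 225. Interval 2 was the only 1 of the 4 whose RIP-2 non-exon ratio to the rest lay above 1 beyond counting error (1.56, 1.24 to 1.94). Of its 86 RIP-2 peaks, 20 lay in the window chr19:37600001-37800000. Some of these nearly touched, such as chr19:37781475-37782379 and chr19:37782390-37783021. Runs of non-exon peaks were not counted once, so the ratio may lean on this window.

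Along the intervals, RIP-1 and RIP-2 crowded in different places. Among 71 windows of 200 kb, RIP-1 mRNA-list members occupied 32 and those of RIP-2 45, with 24 occupied in both. RIP-2 non-exon members were found in all 71 windows, and those of RIP-1 in 50. Between experiments, the Spearman correlation of counts per window was 0.117 over mRNA-list counts and 0.159 over non-exon counts. Between the mRNA and non-exon lists of a single experiment it was 0.459 (RIP-1) and 0.626 (RIP-2). These are descriptions over windows that share their libraries, gene content and neighbours.

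The fullest RIP-1 windows lay side by side in interval 4. They were chr19:55800001-56000000 with 8 mRNA-list peaks, chr19:56000001-56200000 with 8 and chr19:55600001-55800000 with 7. RIP-2 had 1, 0 and 1 mRNA-list peaks there. The fullest RIP-2 windows were chr19:55200001-55400000 with 8 mRNA-list peaks, chr19:44600001-44800000 with 7 and chr19:58200001-58400000 with 6. RIP-1 had 0, 0 and 5 there. Of these 6 windows the last was the one with 5 or more peaks in both experiments.

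The stretch chr19:55200001-56200000 held 23 of the 83 RIP-1 mRNA-list members with a median score of 158, against 79.9 over the whole list, and 10 of the 99 of RIP-2 with a median of 63.9, against 79.6. None of these 33 peaks was shared between the experiments. Shares were low throughout, at 6.41% and 6.91% over the whole lists and 1.03% and 3.02% in the rest of chromosome 19. With so few peaks, the lack of shared ones does not set the stretch apart. Without that stretch the RIP-1 ratio to the rest was 0.354 (0.267 to 0.462) and the RIP-2 ratio 1.53 (1.18 to 1.98). In the non-exon lists the fullest windows were chr19:55600001-55800000 in RIP-1, with 7 peaks, and chr19:37600001-37800000 in RIP-2, with 20. The window at chr19:55200001-55400000 had 17 non-exon peaks beside its 8 mRNA-list peaks, against 2 and 0 in RIP-1.

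**Figure D2:**
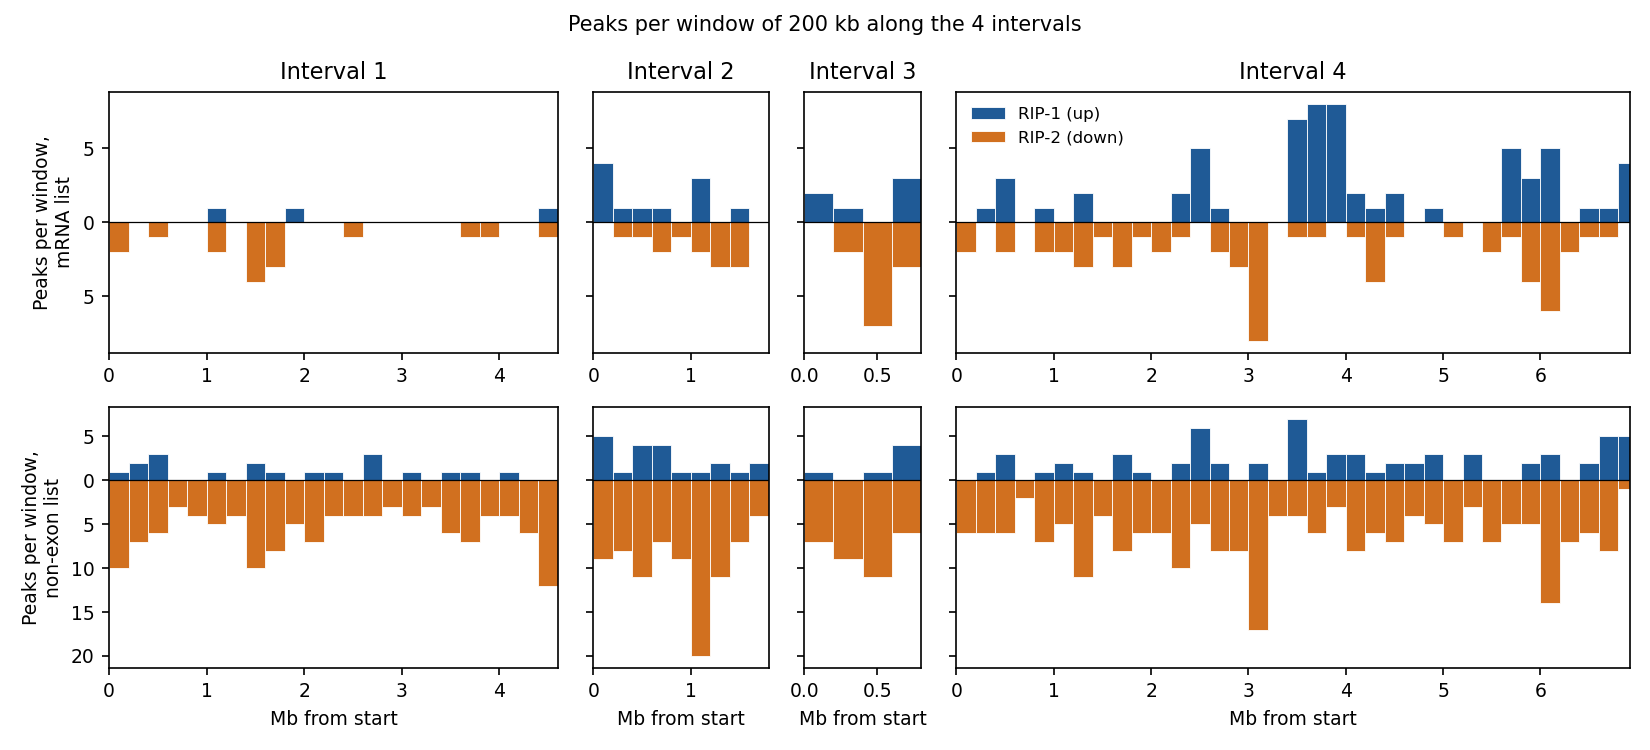
Number of peaks per window of 200 kb (y axis, RIP-1 drawn upward and RIP-2 downward) against the distance from the start of each interval in Mb (x axis), for the mRNA lists (upper row) and non-exon lists (lower row). RIP-1 reaches 8 mRNA-list peaks in each of 2 neighbouring windows of interval 4 where RIP-2 has 1 and 0, and interval 1 is nearly empty in the RIP-1 mRNA list.

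Segments of the mRNA lists had larger median widths in the zinc finger intervals than in the rest of the chromosome, in both experiments, though not beyond counting error in every comparison. The median width of mRNA-list members was 393 bp in RIP-1 (306 to 541) against 267 bp in the rest (231 to 300), and 283 bp in RIP-2 (206 to 405) against 169 bp (134 to 200). These counting intervals did not overlap. They did against the part of the chromosome beyond interval 1, with medians of 273 bp in RIP-1 (223 to 331) and 168.5 bp in RIP-2 (120 to 209). Without interval 1 the members' medians were 389.5 bp (274 to 541) and 255 bp (171 to 371), which also overlap the rest, as do those without interval 4 or without the stretch chr19:55200001-56200000 and, in RIP-1, without interval 3. Segments of 1000 bp or more made up 15 of 83 members in RIP-1 (18.1%, 11.3 to 27.7), against 13.7% of the rest and 13.2% of the whole list. In RIP-2 they were 11 of 99 members (11.1%, 6.32 to 18.8), against 3.52% of the rest (1.71 to 7.08) and 4.13% of the whole list. The intervals of members and rest overlapped in both experiments. In RIP-2 the share was 4 of 16 in interval 1 and 3 of 58 in interval 4.

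By interval, the widest RIP-2 segments were in interval 1, with a median of 531 bp (138 to 1018) and 4 of 16 at 1000 bp or more. Its counting interval overlaps those of the other 3, whose medians were 127, 254 and 266 bp. The widest RIP-1 segments were chr19:54486479-54489996 on the plus strand with 3517 bp and a score of 269, chr19:38124538-38127206 on the minus strand with 2668 bp and 109, and chr19:53571062-53573515 on the minus strand with 2453 bp and 123. The widest of RIP-2 were chr19:23541144-23544271 (minus strand, 3127 bp, score 175), chr19:37642524-37644508 (minus strand, 1984 bp, score 144) and chr19:52618184-52619934 (minus strand, 1750 bp, score 51.8).

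Non-exon members were not wider. Their median was 707 bp in RIP-1 (640 to 832) against 880 bp in the rest (825 to 949), and 525 bp in RIP-2 (499 to 542) against 551 bp (538 to 565). Peaks of 1000 bp or more were 25.9% of RIP-1 members (18.7 to 34.7), near the 25.4% of the whole list and below the 43.1% of the rest (39.2 to 47.2). In RIP-2 they were 7.17% of members (5.18 to 9.86), against 10.2% of the rest (8.72 to 11.9) and 9.81% of the whole list. Widest were chr19:56170148-56177048 in RIP-1 with 6901 bp and chr19:19832488-19837841 in RIP-2 with 5354 bp. The covered length of RIP-1 non-exon members was 8.01 kb per Mb against 16.4 in the rest, and that of RIP-2 was 19.8 against 19.5. For the mRNA lists it was 3.56 against 6.40 in RIP-1 and 3.17 against 1.17 in RIP-2.

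**Figure D3:**
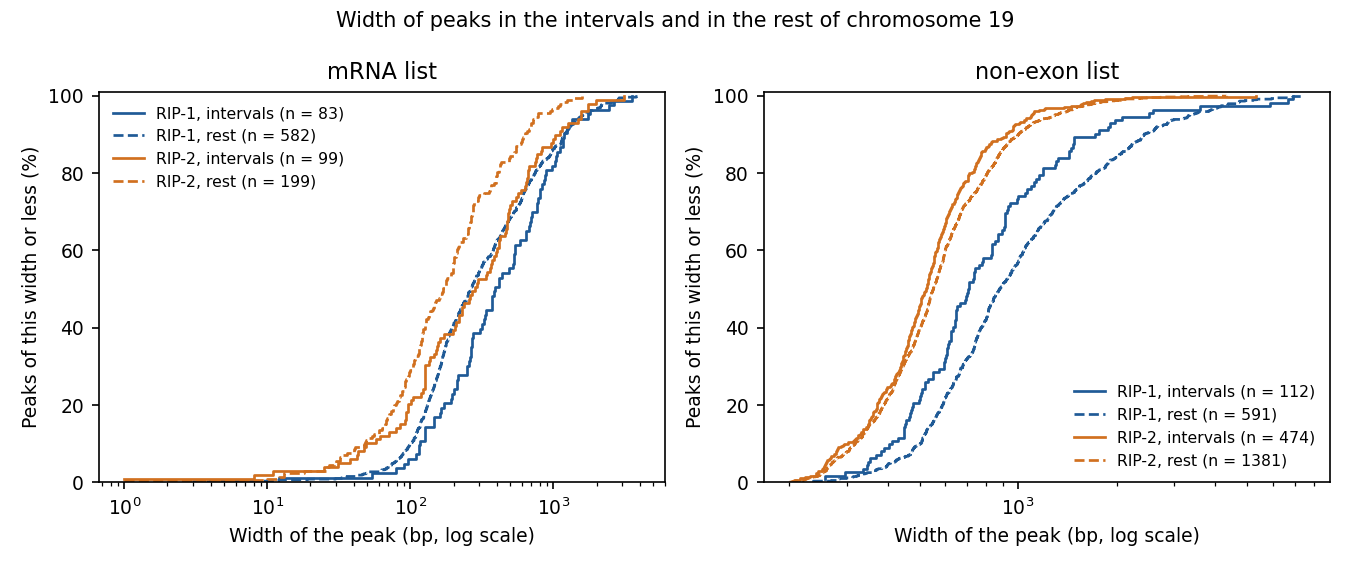
Share of peaks of a given width or less (y axis, percent) against width in bp (x axis, log scale), in the intervals (solid) and the rest of chromosome 19 (dashed), for RIP-1 (blue) and RIP-2 (orange). In the mRNA lists both solid lines lie to the right of the dashed lines around the median, at 393 against 267 bp in RIP-1 and 283 against 169 bp in RIP-2.

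The score of a peak is the authors' deposited value and behaved like MACS's p-value on a scale of negative log10 times 10, with a floor of 50. It ranks peaks within a list, and scores of RIP-1 and RIP-2 stand beside each other as a description only. The median score of mRNA-list members was 81.2 in RIP-1 (70.4 to 101.4) and 79.9 in RIP-2 (72.7 to 91.7). In the rest of the chromosome it was 94.0 (88.6 to 101.25) and 80.3 (70.6 to 85.3). Members and rest did not differ beyond counting error in either experiment. Of the RIP-1 members 15 (18.1%, 11.3 to 27.7) were in the highest 10% of the whole list, as were 18.04% of the rest, and of the RIP-2 members 10 (10.1%, 5.58 to 17.6), as were 9.55% of the rest. Interval 4 held 13 of the 15 in RIP-1, and intervals 1 and 3 held none.

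The strongest RIP-1 mRNA-list members lay in intervals 2 and 4. The first was chr19:36640479-36641251 on the plus strand with a score of 2288, reached by 85 of the 10960 peaks of the list. It was followed by chr19:56185299-56186082 on the plus strand with 1262, chr19:59069639-59070343 on the minus strand with 1207, chr19:56180809-56181058 on the plus strand with 750 and chr19:55997774-55998935 on the plus strand with 679. The second and the fourth belonged to a run of 4 segments on the plus strand from 56180809 to 56197011, and the first to a run of 3 from 36631509. Like all members, these were taken by position, and whether any of them lies in a zinc finger gene was not checked.

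The strongest RIP-2 members came from all 4 intervals, with scores of 226 to 431. They were chr19:55177042-55177073 (plus strand) with 431, chr19:20991838-20991922 (plus) with 396, chr19:37042778-37042879 (minus) with 384, chr19:44791253-44792804 (minus) with 242 and chr19:57931364-57931599 (plus) with 226. The first was a segment of only 31 bp and the second one of 84 bp. None of the 5 strongest members of either mRNA list overlapped the other experiment, as was so for most peaks of the lists. Whether the score belongs to the segment or to a longer peak that was trimmed to exons is not given in the sources.

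**Figure D4:**
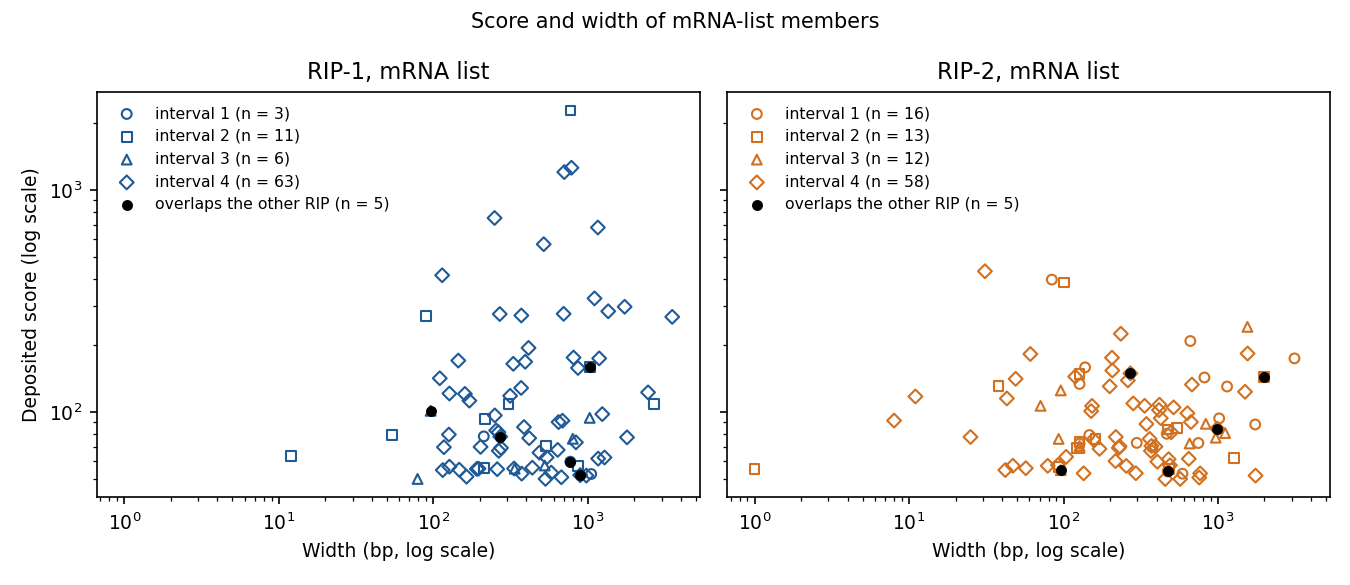
Deposited score (y axis, log scale) against width in bp (x axis, log scale) of the 83 RIP-1 and 99 RIP-2 mRNA-list members; marker shapes give the interval and filled points the 5 members of each list that overlap the other experiment. RIP-1 members reach a score of 2288, RIP-2 members 431, and the filled points lie between 52.0 and 160.

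The median score of RIP-1 non-exon members was 64.8 (61.1 to 71.4), below the 77.8 of the rest (74.6 to 81.5) and near the 66.9 of the whole list. It overlapped the 76.4 of the part beyond interval 1 (70.3 to 80.8). In RIP-2 the medians were 78.7 (76.7 to 83.6) and 81.5 (77.9 to 84.4). The fold enrichment over the control, also the authors' value, had a median of 6.65 in RIP-1 (6.41 to 7.05) against 6.44 in the rest, and of 8.19 in RIP-2 (7.71 to 8.20) against 7.96. Neither differed beyond counting error. A false discovery rate (FDR) of 5% or less was given to 2 of the 112 RIP-1 members and to 21 of the 591 peaks of the rest, against 0.678% of the whole list, and to 0 of the 474 RIP-2 members, with 0 in the whole list. An FDR of 100% was given to 87.5% of RIP-1 members, against 80.9% of the rest and 94.1% of the whole list. The lowest FDR was 68.3% among RIP-2 members and also in their whole list. Densities, widths and sharing were taken over all listed peaks, whatever their FDR.

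The first 2 of the strongest RIP-1 non-exon peaks had high-scoring mRNA-list segments nearby. The first, chr19:36636225-36637700, had a score of 1171, a fold enrichment of 20.1 and an FDR of 5.15%, and lies upstream of the leading mRNA-list segment within its run. The second, chr19:56170148-56177048, had a score of 992, a fold enrichment of 9.10 and an FDR of 4.73%, and ends upstream of the run that starts at 56180809. The third, chr19:55750491-55753012, had a score of 430 and an FDR of 4.49%. In RIP-2 the strongest was chr19:58848348-58849438, with a score of 603 and a fold enrichment of 30.6, the highest fold of any RIP-2 peak of chromosome 19, followed by chr19:21594560-21594837 with 343 and a fold of 16.4. Both had an FDR of 100%.

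The design text gives the repeat of the experiment as a means to set unspecific signal aside, so the overlap of RIP-1 and RIP-2 is the comparison the design implies. Sharing means an overlap of at least 1 bp with a peak of the same kind of list in the other experiment, on the same strand for the mRNA lists. Of the 83 RIP-1 mRNA-list members 5 were shared (6.02%, 2.60 to 13.3), against 6 of 582 in the rest of the chromosome (1.03%, 0.473 to 2.23) and 6.41% of the whole list. Of the 99 RIP-2 members 5 were shared (5.05%, 2.18 to 11.3), against 3.02% of the rest (1.39 to 6.42) and 6.91% of the whole list. The share of RIP-1 members was thus near that of the list. Its counting interval lay above that of the rest of chromosome 19, but overlapped that of the part beyond interval 1, at 1.58% (0.617 to 3.99). Without interval 1, 2 or 3 the share of members was 5.0%, 5.56% or 5.19%, with lower bounds of 1.96%, 2.18% and 2.04% that overlap the rest. In interval 4 it was 3.17% (0.875 to 10.9). The rest also held fewer RIP-2 peaks per Mb to meet, at 4.42 against 7.01, and the part of that in the difference was not tested.

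All 5 shared mRNA-list segments are given here, since they are the members that both experiments called. In interval 1, the plus-strand segment chr19:20989358-20990128 scored 59.8 in RIP-1, and its partner chr19:20989393-20989865 scored 54.1 in RIP-2. In interval 2, the minus-strand segment chr19:37642632-37643668 scored 160 in RIP-1, and its partner chr19:37642524-37644508 scored 144 in RIP-2. This pair was the strongest by its lower score and the only 1 with both segments above 1000 bp. In interval 3, chr19:44840775-44840871 on the minus strand was listed with identical edges in RIP-1, at a score of 101.4, and RIP-2, at 54.8.

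The other 2 lay in interval 4. The plus-strand segment chr19:58198247-58199139 scored 52.0 in RIP-1, and its partner chr19:58198220-58199208 scored 84.3 in RIP-2. The plus-strand segment chr19:58341661-58341932 also had identical edges, its RIP-1 score being 77.5 and its RIP-2 score 150. In all 5 pairs the shorter segment lay wholly inside the other or equalled it, with 472, 1036, 96, 892 and 271 bp in common. The RIP-1 scores stood at the percentiles 22.4, 83.5, 66.1, 5.15 and 47.7 of the whole list, and those of RIP-2 at 9.18, 86.2, 10.7, 54.5 and 87.6.

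Of the 112 RIP-1 non-exon members 14 were shared (12.5%, 7.59 to 19.9), against 7.11% of the rest (5.30 to 9.47) and 18.1% of the whole list. Of the 474 RIP-2 members 17 were shared (3.59%, 2.25 to 5.67), against 3.11% of the rest and 3.63% of the whole list. The counting intervals of members and rest overlapped in both experiments. The 14 peaks made 17 pairs: 1 in interval 1, 5 in interval 2, 3 in interval 3 and 8 in interval 4. RIP-1 scores in these pairs ran from 54.2 to 342 and RIP-2 scores from 52.8 to 237, and the fold was higher in RIP-2 in 12 of 17. The median fold over the whole lists was also higher in RIP-2, at 8.19 against 6.55.

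The strongest shared non-exon peaks were chr19:56285420-56285676 and chr19:56275416-56275672. They had scores of 342 and 288 and folds of 13.6 and 10.4 in RIP-1, and scores of 220 and 131 and folds of 12.1 and 12.1 in RIP-2. Their FDRs were 7.48% and 12.2% in RIP-1, and 100% and 100% in RIP-2. Both measured 257 bp in RIP-1, the smallest width of its non-exon members, and their starts lay 10004 bp apart, against 10115 bp between their RIP-2 partners. Whether both have the same sequence, so that reads of one could count for the other, was not tested. At the other end of width, the RIP-1 peak chr19:44238163-44244832 of 6670 bp contained the RIP-2 peak chr19:44239204-44242109 of 2906 bp, with folds of 5.07 and 4.89.

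**Figure D5:**
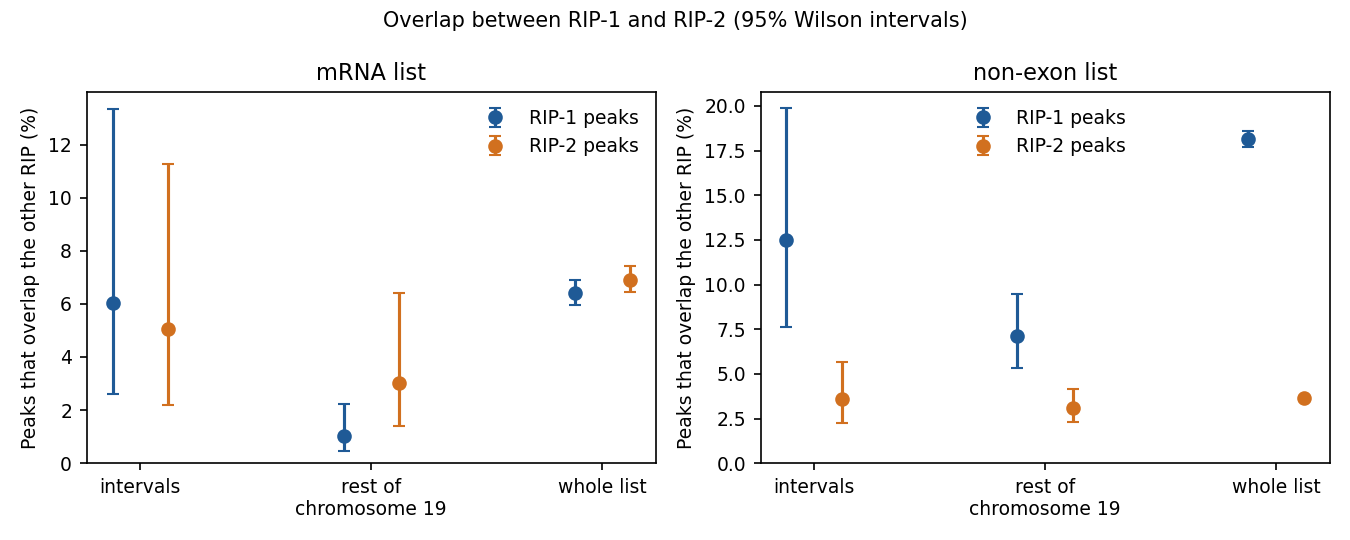
Percentage of peaks that overlap a peak of the same kind of list in the other experiment (y axis), in the intervals, in the rest of chromosome 19 and over the whole list (x axis), for RIP-1 (blue) and RIP-2 (orange); bars are 95% Wilson intervals. RIP-1 mRNA-list members lie at 6.02%, near the 6.41% of the list and above the 1.03% of the rest.

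The kinds of list did not cross. None of the 83 RIP-1 mRNA-list members overlapped a RIP-2 non-exon peak, and none of the 99 RIP-2 members overlapped one of RIP-1. The counting intervals of these zeros reach 4.42% and 3.74%, but how far the split into lists allows crossing is not given in the sources. The same held for the rest of chromosome 19, and over the whole lists 18 of 10960 and 22 of 10280 segments crossed (0.164% and 0.214%), so the zeros are no feature of the zinc finger intervals.

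Distances to other peaks gave a wider measure than overlap. Counting the 5 shared members of each list too, an mRNA-list segment of the other experiment lay within 10 kb of 11 of the 83 RIP-1 members (13.3%, 7.56 to 22.2), against 3.95% of the rest (2.65 to 5.86), and of 13 of the 99 RIP-2 members (13.1%, 7.84 to 21.2), against 14.6% (10.3 to 20.1). Here too the rest held fewer RIP-2 segments per Mb to meet, at 4.42 against 7.01. The part of that in the RIP-1 difference was not tested, and shares over the whole lists were not computed. A non-exon peak of the same experiment lay within 10 kb of 41.0% of RIP-1 members (31.0 to 51.7) and 44.3% of the rest, and of 56.6% of RIP-2 members (46.7 to 65.9) and 45.2% of the rest (38.5 to 52.2). For a non-exon peak of the other experiment the share was 39.8% of RIP-1 members against 16.7% of the rest. In RIP-2 it was 15.2% of members against 23.1%, the opposite direction. Counting intervals and whole-list shares were not computed for these, and the cause was not tested.

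Most members stood alone rather than in runs, as did most RIP-2 segments of the rest. In RIP-1, 33 of the 83 members (39.8%, 29.9 to 50.5) stood in runs on 1 strand with gaps of 10 kb or less, against 53.8% of the rest (49.7 to 57.8), and the longest run held 4 segments against 8. In RIP-2 it was 30 of 99 members (30.3%, 22.1 to 39.95), all in pairs, against 23.1% of the rest (17.8 to 29.4). Counting intervals of members and rest overlapped in both experiments. The density of segments also differed, at 5.88 per Mb against 12.9 in RIP-1 and 7.01 against 4.42 in RIP-2. The part of that in the shares in runs was not tested, and shares over the whole lists were not computed. The plus strand carried 63.9% of RIP-1 members (53.1 to 73.4) and 57.6% of RIP-2 members (47.7 to 66.8). In the rest it carried 58.1% (54.0 to 62.0) and 47.2% (40.4 to 54.2), which overlap the members. The shares were 63.2% and 53.1% in the part beyond interval 1, and 51.2% and 51.8% over the whole lists.

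The edges of the intervals were set by position and cut through 1 peak, the RIP-1 non-exon peak chr19:38399167-38400360 at the end of interval 2, with a score of 67.4. Over the lists, the peaks just inside the edges had median scores of 70.2 and 71.3 in the mRNA lists of RIP-1 and RIP-2 and of 63.9 and 79.8 in the non-exon lists. Those just outside had medians of 66.1, 65.3, 75.7 and 54.2. In each list these medians rest on only 8 peaks inside and 7 outside, and no counting interval was computed. Scores of the RIP-2 non-exon peaks ran from 50.38 to 242.55 inside and from 50.05 to 115.38 outside. Outside peaks of the RIP-1 mRNA list lay up to 5913 kb from an edge.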

How the data were processed

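RIP-seq of HEK293T gave 6 libraries in 3 groups of 2. Per the labels' protocols, ribosomal RNA was removed and paired-end reads of 150 bp were sequenced. Tools named in the submitters' processing notes are HISAT2 2.0.4 and cutadapt 1.9.3, and the build is hg19. Peak names carry the MACS prefix, per the file lines; its version, settings and control library were not stated in any source used here. The authors called peaks per experiment and deposited a score per peak and, for the non-exon lists, the length, the fold enrichment (a ratio) and the FDR in percent. Without a header, the meaning of each column was read from its values and place. Non-exon positions include both ends; mRNA-list positions may count from 0 or 1, an uncertainty of 1 bp.

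Members were found by midpoint. Densities, sharing, medians and windows of 200 kb were computed with Python 3.11.15, pandas 2.3.3, scipy 1.17.1 and statsmodels 0.14.6, and these routines were tested on simulated data. The rest of the chromosome was measured on its full length, sequence gaps included. Named members are the shared mRNA-list members, the 5 highest scores, the 3 widest and the 3 fullest windows of each list, and the peaks at the edges. The strongest and largest of the shared non-exon peaks, and the stretch of 1 Mb, were singled out after their values were seen. The members and these choices were made with earlier results of these data known. Replicate libraries are not tied to separate cultures in the labels. Depth is unknown, since the lists hold no read counts. Gene names and sequences of hg19 were not used here.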

Additional observations from a re-analysis of the deposited data

How the results depend on the processing

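Of 140 alternative values for the density ratio, sharing, median width and median score of the members, 128 stayed within the 95% counting interval of the value reported, 12 moved outside it and 0 reversed. A reversal was defined only for density ratios whose interval excluded 1, so no other alternative could count as reversed. The 128 include alternatives that could not move or hardly could, so the tally is no measure of robustness. A minimum width of 100 bp removed no non-exon peak, and no chromosome 19 peak crossed kinds of list. The interval edges cut through only 1 peak. The RIP-1 mRNA-list density ratio of 0.455 became 0.586 against the part of the chromosome beyond interval 1, 0.650 without interval 1, 0.215 without interval 4 and 0.354 without the 1 Mb stretch of interval 4, an alternative added after the data were seen, as was counting runs once. The RIP-1 non-exon ratio of 0.604 became 0.435 with the upper 50% by score, 0.744 without interval 1 and 0.487 without interval 4. The RIP-2 mRNA-list ratio of 1.59 stayed within its interval but was 1.29 (0.897 to 1.81) without interval 4. Sharing of mRNA-list members became 2.38% in RIP-1 and 2.0% in RIP-2 with the upper 50% of both lists, where 1 segment of each remained shared, and 15.0% in RIP-1 without interval 4, on 20 segments. Sharing of RIP-2 non-exon members fell to 2.11% under a reciprocal overlap of 50%, and the median width of RIP-1 non-exon members was 870 bp in the upper 50% by score. The wider median of mRNA-list members stayed within its interval, but its bounds overlapped the rest without interval 1 or 4. The cause was not tested, except that leaving an interval out removes its own peaks. Densities on windows of 100 kb that hold a peak gave ratios of 0.428, 1.49, 0.569 and 1.03 for the mRNA lists of RIP-1 and RIP-2 and their non-exon lists. Every value is computed per experiment, so leaving an experiment out changes none. No paired analysis was possible because the lists give no values per library, only 1 call per experiment. Unknown depth limits every comparison of counts and scores between RIP-1 and RIP-2.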
